A study of Mus musculus with 8 samples.

Results

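The 39 genes described here encode ribosome biogenesis factors of the mouse, and they were chosen as a list of named genes, with 1 probe standing for each gene. That was the brightest probe, by mean log2 signal over the 8 arrays, among those whose accession is a RefSeq transcript of the gene. All 39 had a probe on the array and passed the filter on dim probes, so they are 39 of the 15140 genes tested. Each of the 39 probes was well above background on all 8 arrays, so no member entered through 1 group alone. Ribosome biogenesis is the making of ribosomes in the nucleolus, where RNA polymerase I transcribes the precursor of ribosomal RNA. Small nucleolar ribonucleoproteins (snoRNPs), which are RNA-guided enzymes, then modify that precursor, and assembly factors fold and cut it into the small and large subunits. Resting T cells are small and make few ribosomes, and the growth that follows their activation is known to involve ribosome production and the transcription factor Myc.

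The study measured messenger RNA in splenic T cells on 8 one-colour Agilent arrays. There are 2 arrays each for KO cells stimulated for 6 h with anti-CD3/CD28 antibodies, WT cells stimulated in the same way, KO cells in medium, and WT cells in medium. CD3 is the signalling part of the T cell receptor complex and CD28 is a costimulatory receptor, and antibodies against both stand in for antigen. KO mice lack Lsp1, which encodes an actin-binding protein of leukocytes, and carry the deletion on a C57BL/6 background after 10 generations of backcrossing. WT mice were C57BL/6 controls of matched age and sex, and all mice were 8 to 12 weeks old unless the submitters specified otherwise. The sources used here do not say how the T cells were purified, how long the medium samples were kept, or whether arrays of 1 group hold RNA of different animals. P-values therefore reflect only the variation among these samples, and that variation may be technical. With 2 arrays against 2, an exact permutation test reaches no p below 0.333, so tests rest on limma's fit across all genes.

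Values are log2 normalized signals, that is, log2 of the processed spot intensity minus the 75th percentile of its array, so that 0 marks that percentile. A gene was called at an adjusted p below 0.05 (limma, Benjamini-Hochberg over all 15140 genes), and errors given with ± are standard errors of the fit with 2 arrays per group. The check of the genotype labels held: Lsp1 stood at 3.69 and 3.65 on the stimulated KO arrays against 7.06 and 6.99 on the stimulated WT arrays, and at 3.64 and 3.48 on the KO medium arrays against 7.48 and 7.24 on the WT medium arrays. All 15 T cell markers listed were well above background on all 8 arrays, and so were all 15 B cell and all 11 natural killer cell markers. All 15 B cell markers had values below 0 for KO minus WT, none of them called, with a median of -0.61 on the log2 scale after stimulation and -0.53 in medium, and natural killer cell markers had medians of -0.43 and -0.55. The summed level of the B cell list was 33.5 and 32.6 on the stimulated KO arrays, 56.8 and 48.8 on the stimulated WT arrays, 52.3 and 53.3 on the KO medium arrays, and 78.3 and 64.6 on the WT medium arrays. On stimulation the medians of the T cell, B cell and natural killer cell lists were -0.23, -0.30 and -0.29 in KO and -0.24, -0.29 and -0.36 in WT, and the part of these lists in the results was not tested. Both KO replicate 2 arrays stood apart from the other 6 in markers of other cells. The 13 measured of 15 neutrophil and precursor markers had a summed level of 152 and 446 (units of the array's 75th percentile) on the stimulated KO arrays, 146 and 144 on the stimulated WT arrays, 192 and 784 on the KO medium arrays, and 256 and 172 on the WT medium arrays. The median of the erythroid and platelet list lay 2.26 above the WT medium mean on the stimulated KO replicate 2 array and 1.79 above it on the KO medium replicate 2 array. The median of 16 cell cycle genes lay 1.15 and 1.13 above it on those arrays, and between -0.10 and 0.07 on the other 6. The summed level of 12 monocyte and macrophage markers was 19.3 on stimulated KO replicate 2 and 22.3 on KO medium replicate 2. On the other 6 arrays that level ran from 3.99 to 4.89. Against the WT medium mean, the T cell list had medians of -0.36 and -0.37 on the KO replicate 2 arrays. On the other 6 arrays these medians ran from -0.26 to 0.07. Among the markers of other cells, Mmp8 and Retnlg of the neutrophil list were well above background on 3 arrays each, and Cd163, a macrophage marker, on 0. Because both arrays belong to KO, KO results that rest on them are also given without them, an alternative chosen after seeing the data. In that fit each KO group keeps 1 array, which is assumed to vary like the WT groups. In such bulk samples fewer cells of a type and less RNA per cell cannot be told apart. All 8 arrays lay on 1 slide, and the place of an array on it and its group cannot be told apart.

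Most of the 39 ribosome biogenesis factors rose after 6 h of stimulation in both genotypes. These members were chosen with earlier results of these data known, so their counts describe this list and are not an independent test of it. In KO cells 33 of the 39 were called higher and 0 lower, where 5.85% of all genes tested were called higher and 2.28% lower, 8.13% in all. In WT cells 32 were called higher and 0 lower, where 6.42% of all genes were called higher and 3.84% lower, 10.3% in all. The 32 called in WT were also called in KO, against 4.86% of all genes called higher in both, and Polr1a was called in KO alone. The 6 members called in neither genotype were Rrn3, Polr1c, Pes1, Noc3l, Wdr12 and Npm1. The median log2 fold change of the members was 1.18 in KO and 1.03 in WT, while the median over all genes was -0.08 in KO and -0.09 in WT. Of the called members, 25 in KO and 20 in WT rose by at least 2-fold. Over all 15140 genes, 690 in KO and 779 in WT were called and changed by at least 2-fold in either direction. Both stimulated arrays lay above both medium arrays for 37 of 39 members in each genotype, a pattern shown by 22.8% of all genes in KO and 27.4% in WT, and the exceptions in both were Wdr12 and Npm1.

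**Figure D1:**
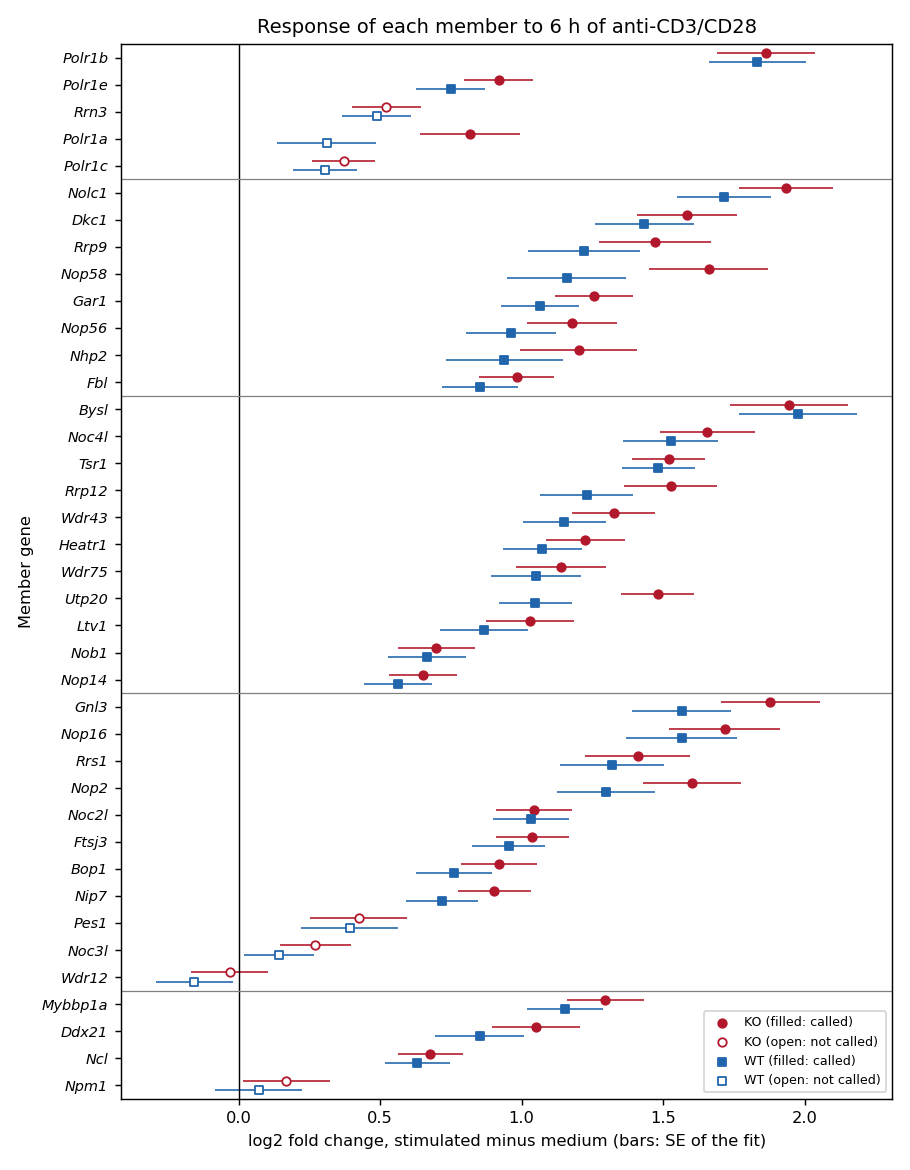
Response of each of the 39 genes, one row per gene in blocks by role (from the top: RNA polymerase I, snoRNP proteins, small subunit assembly, large subunit assembly, multifunctional nucleolar proteins). The horizontal axis is the log2 fold change, stimulated minus medium, with bars for the standard error of the fit; red circles are KO and blue squares WT, filled where called. The points run from -0.16 for Wdr12 in WT to 1.98 for Bysl in WT, and most lie near or above 1.

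The counts of called members depended on single arrays in both genotypes. In WT 3 members were called without stimulated replicate 1, stimulated replicate 2 or medium replicate 1, and 11 without medium replicate 2, where 1.31% to 4.07% of all genes were called, and the WT median stayed between 0.99 and 1.1. In KO fewer members were called without stimulated replicate 2, medium replicate 1 or medium replicate 2, fits that leave 1 array in a group. Over all alternatives the KO median stayed between 0.92 and 1.35. When only the KO arrays were fitted, 0 members were called, where 0.251% of all genes were called. When both KO replicate 2 arrays were left out, 16 of 39 members were called higher in KO, where 2.88% of all genes were called, and the median member fold change in KO was 0.93 on the log2 scale. In the fit of all arrays, the gene order was much the same in both genotypes: over the 39 members the fold changes in KO and WT correlated with Pearson's r = 0.97 and Spearman's rho = 0.97. This is a description across genes of 1 list, which come from the same 8 arrays and 1 fit. The WT fold change was only weakly related to the mean medium level of the probe (r = -0.26 across the 39 genes).

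**Figure D2:**
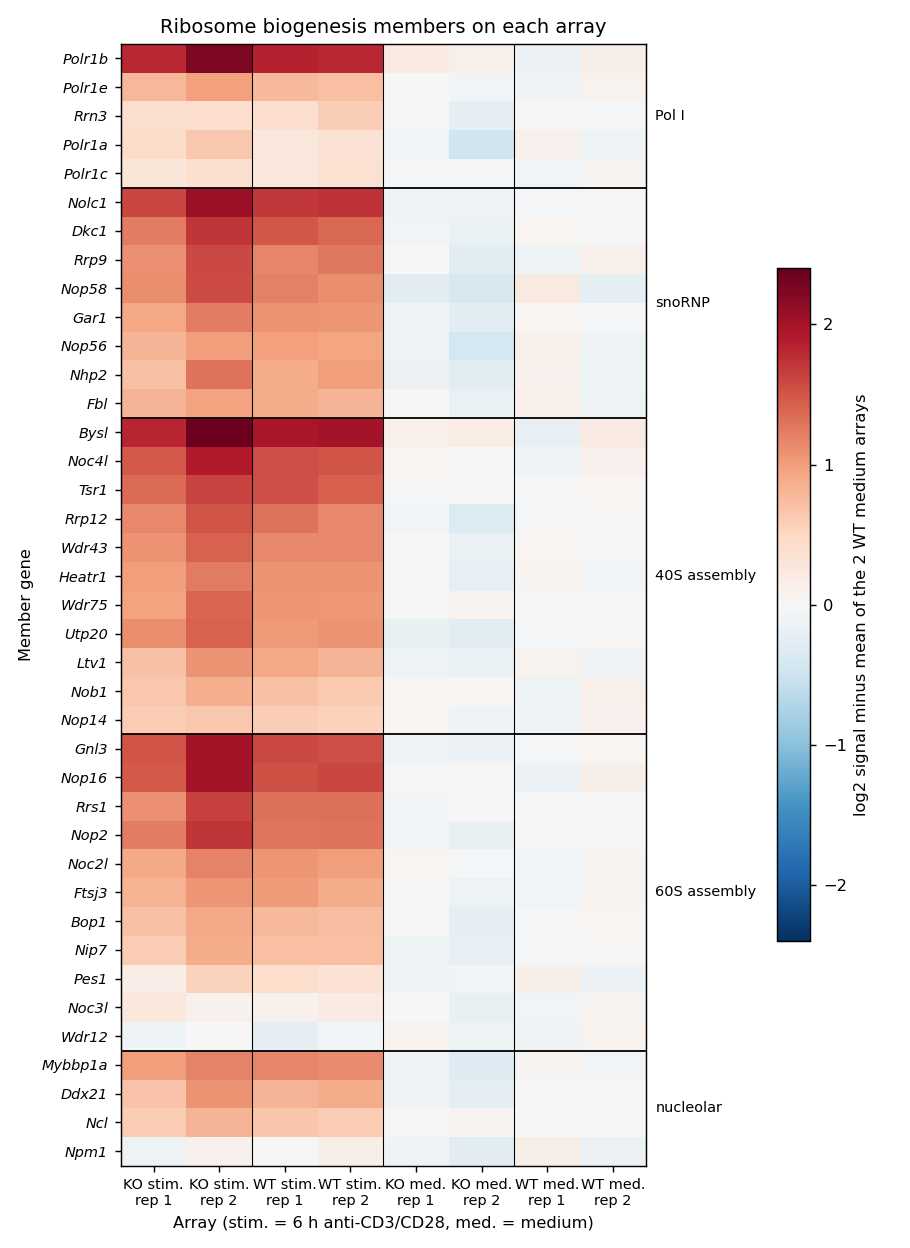
Signal of the 39 genes (rows, in blocks by role) on the 8 arrays (columns: stimulated KO, stimulated WT, KO medium, WT medium, 2 arrays each). Colour is the log2 normalized signal minus the mean of the 2 WT medium arrays, red for higher and blue for lower. The 4 stimulated columns are red in nearly all rows, the stimulated KO replicate 2 column is the deepest in most, and the rows of Wdr12, Npm1 and Noc3l are pale throughout.

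The sequences upstream of 3 members are printed to show where the E-box does and does not stand among genes that rose and that missed the test. The E-box, CACGTG, is the run of letters to which the dimer of Myc and Max is known to bind. RefSeq windows of 250 bases before the start of transcription (build GRCm38.p6) were matched to 34 of the 39 members, all but Fbl, Npm1, Bop1, Rrs1 and Rrp12. CACGTG, which reads the same on both strands, was found in the windows of 2 of 34 members (5.88%), Nop2 and Rrn3. It was found for 9.05% of the 12095 tested genes with a window and for 9.95% of the 583 with a window that were called higher in both genotypes. CCGGAA or its reverse complement TTCCGG, the core letters to which ETS family factors are known to bind, was found for 14 of 34 members (41.2%), for 45.5% of the 112 other ribosome biogenesis genes with a window, and for 21.7% of all tested genes with a window. TATAAA or its reverse complement TTTATA was found for 2 of 34 members, Dkc1 and Pes1, and for 10.05% of all tested genes with a window. The median GC content was 59.6% over the windows of the members and 58.4% over those of all tested genes. The windows below, printed 5′ to 3′ on the strand of the gene, carry the E-box and both strands of the ETS core in capitals, and no capital letter belongs to more than 1 match.
Nop2 (GRCm38.p6, chr6:125131633-125131882, plus strand): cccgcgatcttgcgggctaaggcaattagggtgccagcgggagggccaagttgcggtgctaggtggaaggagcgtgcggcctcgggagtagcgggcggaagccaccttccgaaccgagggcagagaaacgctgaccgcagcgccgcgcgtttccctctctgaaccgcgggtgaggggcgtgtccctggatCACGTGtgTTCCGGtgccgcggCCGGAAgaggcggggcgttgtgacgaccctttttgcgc
Rrn3 (GRCm38.p6, chr16:13780449-13780698, plus strand): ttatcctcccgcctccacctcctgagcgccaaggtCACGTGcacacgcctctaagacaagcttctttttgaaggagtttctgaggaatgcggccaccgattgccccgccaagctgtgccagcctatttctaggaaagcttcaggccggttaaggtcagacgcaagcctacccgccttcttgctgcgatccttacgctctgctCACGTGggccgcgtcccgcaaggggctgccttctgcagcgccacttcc
Bysl (GRCm38.p6, chr17:47611493-47611742, minus strand): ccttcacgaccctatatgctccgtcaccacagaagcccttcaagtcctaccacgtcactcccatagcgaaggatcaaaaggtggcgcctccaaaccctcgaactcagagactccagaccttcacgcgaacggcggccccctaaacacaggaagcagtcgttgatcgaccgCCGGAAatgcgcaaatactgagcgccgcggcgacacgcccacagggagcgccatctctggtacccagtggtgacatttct
Nop2, a methyltransferase of large subunit ribosomal RNA, has 1 CACGTG, which begins 60 bases before the start, and 2 ETS cores. Rrn3, the factor that brings RNA polymerase I to its promoter, has CACGTG beginning 215 and 48 bases before the start and no ETS core. Bysl, a factor of late small subunit assembly and the member with the largest rise in WT, has no CACGTG and 1 ETS core. Nop2 rose by 1.60 ± 0.17 on the log2 scale in KO and 1.30 ± 0.17 in WT, whereas Rrn3 did not pass the test in either genotype. A match of letters is a description of the window and not a binding site, and its absence says only that these letters are not in this window.

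Among the 5 genes of RNA polymerase I and its initiation factor, 3 rose in KO and 2 in WT. Polr1b, which with Polr1a forms the catalytic core of the enzyme, stood at 2.17 and 2.58 on the stimulated KO arrays and 2.20 and 2.17 on the stimulated WT arrays, against 0.55 and 0.48 on the KO medium arrays and 0.22 and 0.49 on the WT medium arrays. Its 4 stimulated values were well clear of its 4 medium values, and the stimulated KO replicate 2 array was the highest. It rose by 1.86 ± 0.17 in KO (3.64-fold, limma adjusted p = 0.00357) and by 1.83 ± 0.17 in WT (3.56-fold, limma adjusted p = 0.00378). Polr1e, a subunit particular to RNA polymerase I, stood at 2.05 and 2.24 on the stimulated KO arrays and 2.03 and 1.99 on the stimulated WT arrays, against 1.26 and 1.20 on the KO medium arrays and 1.18 and 1.34 on the WT medium arrays. The groups did not overlap, and it rose by 0.92 ± 0.12 in KO and 0.75 ± 0.12 in WT, with a 2nd probe at 0.90 in KO and 0.89 in WT.

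Polr1a, the largest subunit of the enzyme, stood at 2.48 and 2.68 on the stimulated KO arrays and 2.31 and 2.39 on the stimulated WT arrays, against 1.97 and 1.55 on the KO medium arrays and 2.14 and 1.93 on the WT medium arrays. The stimulated arrays were the higher ones in each genotype, and the KO medium replicate 2 array was the lowest of all. It was called in KO, at 0.82 ± 0.18 (limma adjusted p = 0.0444), and not in WT, at 0.31 ± 0.18 (limma adjusted p = 0.287). The difference between these responses was 0.51 ± 0.25 and was not called (limma adjusted p = 0.9999), and without both KO replicate 2 arrays Polr1a was not called in KO either, at 0.51 (limma adjusted p = 0.213). Rrn3, whose window is printed above, stood at 2.72 and 2.73 on the stimulated KO arrays and 2.73 and 2.92 on the stimulated WT arrays, against 2.29 and 2.12 on the KO medium arrays and 2.37 and 2.30 on the WT medium arrays. Its groups did not overlap, but its fold changes of 0.52 ± 0.12 in KO and 0.49 ± 0.12 in WT missed the threshold (limma adjusted p = 0.0561 in KO and 0.0577 in WT). Polr1c, a subunit that RNA polymerases I and III share, stood at 3.84 and 3.94 on the stimulated KO arrays and 3.80 and 3.92 on the stimulated WT arrays, against 3.51 and 3.52 on the KO medium arrays and 3.49 and 3.62 on the WT medium arrays. Here too the groups did not overlap, and the fold changes of 0.37 ± 0.11 in KO and 0.31 ± 0.11 in WT were not called. The median fold change of these 5 genes was 0.82 in KO and 0.49 in WT on the log2 scale.

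All 8 members that belong to box C/D or H/ACA snoRNPs rose in both genotypes, with median log2 fold changes of 1.36 in KO and 1.11 in WT. Nolc1, a chaperone that both kinds of snoRNP bind, stood at 4.52 and 4.99 on the stimulated KO arrays and 4.62 and 4.65 on the stimulated WT arrays, against 2.81 and 2.83 on the KO medium arrays and 2.89 and 2.94 on the WT medium arrays. The medium arrays were tightly grouped, and every stimulated array lay far above them. Nolc1 rose by 1.93 ± 0.17 in KO (3.82-fold, limma adjusted p = 0.00288) and by 1.71 ± 0.17 in WT (3.28-fold, limma adjusted p = 0.00429), and its dimmer 2nd probe gave 1.23 in KO and 1.19 in WT. Dkc1, the pseudouridine synthase of the H/ACA snoRNPs, stood at 1.32 and 1.80 on the stimulated KO arrays and 1.58 and 1.48 on the stimulated WT arrays, against 0.03 and -0.07 on the KO medium arrays and 0.14 and 0.04 on the WT medium arrays. Its stimulated KO arrays lay on either side of both stimulated WT arrays, and it rose by 1.58 ± 0.18 in KO and 1.43 ± 0.18 in WT.

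The remaining core proteins moved the same way. Of the H/ACA proteins that bind beside Dkc1, Gar1 rose by 1.26 in KO and 1.06 in WT, and Nhp2 by 1.20 in KO and 0.94 in WT. Of the box C/D proteins, Nop58 rose by 1.66 in KO and 1.16 in WT, Nop56 by 1.18 in KO and 0.96 in WT, and Fbl, the methyltransferase, by 0.98 in KO and 0.85 in WT. Rrp9, a protein of the U3 particle that guides early cuts of the precursor, rose by 1.47 in KO and 1.22 in WT. Nolc1 at 1.71, Dkc1 at 1.29 and Gar1 at 1.04 were still called in KO without both KO replicate 2 arrays, whereas Nop58, Rrp9, Nop56, Nhp2 and Fbl, at 0.83 to 1.37, were not.

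All 11 members that act in small subunit assembly also rose in both genotypes, with median log2 fold changes of 1.32 in KO and 1.07 in WT. Bysl, whose window is printed above, stood at 3.45 and 3.97 on the stimulated KO arrays and 3.58 and 3.61 on the stimulated WT arrays, against 1.74 and 1.79 on the KO medium arrays and 1.43 and 1.81 on the WT medium arrays. It showed the largest rise of the 39 in both genotypes, with the stimulated KO replicate 2 array highest and the groups far apart. The fold changes were 1.95 ± 0.21 in KO (3.85-fold, limma adjusted p = 0.00611) and 1.98 ± 0.21 in WT (3.94-fold, limma adjusted p = 0.00587). Noc4l, which with Nop14 acts on the early small subunit particle, stood at 3.04 and 3.47 on the stimulated KO arrays and 3.12 and 3.08 on the stimulated WT arrays, against 1.62 and 1.58 on the KO medium arrays and 1.47 and 1.67 on the WT medium arrays. The groups did not overlap, and Noc4l rose by 1.66 ± 0.17 in KO and 1.53 ± 0.17 in WT. Its partner Nop14 showed the smallest rise of the 11, at 0.65 ± 0.12 in KO and 0.56 ± 0.12 in WT.

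Utp20, a very large scaffold protein of the early small subunit particle, stood at 0.64 and 0.93 on the stimulated KO arrays and 0.55 and 0.59 on the stimulated WT arrays, against -0.66 and -0.73 on the KO medium arrays and -0.50 and -0.46 on the WT medium arrays. The stimulated and medium arrays were well apart, and within each condition the KO and WT arrays did not overlap. Utp20 rose by 1.48 ± 0.13 in KO and 1.05 ± 0.13 in WT. Heatr1, Wdr43 and Wdr75, which belong to the subcomplex known to join the precursor as it is transcribed, rose by 1.22, 1.32 and 1.14 in KO and by 1.07, 1.15 and 1.05 in WT. Among the factors that act later, Tsr1 rose by 1.52 in KO and 1.48 in WT, Ltv1 by 1.03 in KO and 0.87 in WT, and Nob1, the endonuclease that trims small subunit ribosomal RNA, by 0.70 in KO and 0.67 in WT. Rrp12, known in yeast for the export of both subunits, rose by 1.53 in KO and 1.23 in WT. A 2nd probe existed for Tsr1 and Wdr43, and each was called in both genotypes.

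Of the 11 members that act in large subunit assembly, 8 rose in both genotypes and 3 were called in neither, with median log2 fold changes of 1.04 in KO and 0.95 in WT. Gnl3, or nucleostemin, a nucleolar GTP-binding protein, stood at 1.90 and 2.39 on the stimulated KO arrays and 1.98 and 1.94 on the stimulated WT arrays, against 0.28 and 0.25 on the KO medium arrays and 0.35 and 0.44 on the WT medium arrays. Nop16, a protein of early large subunit particles, stood at 1.84 and 2.36 on the stimulated KO arrays and 1.89 and 1.96 on the stimulated WT arrays, against 0.37 and 0.40 on the KO medium arrays and 0.22 and 0.50 on the WT medium arrays. For both genes the stimulated KO replicate 2 array was the highest and no stimulated array came near a medium array. Gnl3 rose by 1.88 ± 0.17 in KO (3.68-fold, limma adjusted p = 0.00357) and by 1.56 ± 0.17 in WT (2.96-fold, limma adjusted p = 0.00675). Nop16 rose by 1.72 ± 0.20 in KO and 1.56 ± 0.20 in WT. Rrs1, which helps to bring the small ribosomal RNA of the large subunit into the particle, rose by 1.41 in KO and 1.32 in WT. Noc2l rose by 1.04 in KO and 1.03 in WT, and Ftsj3, a methyltransferase-like processing factor, by 1.04 in KO and 0.95 in WT. Nip7 rose by 0.90 in KO and 0.72 in WT, but its dimmer 2nd probe, at 0.47 in KO and 0.27 in WT, was not called, so its probes disagree on the call.

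Bop1, Pes1 and Wdr12 form 1 complex that large subunit assembly needs, and the 3 genes did not give the same result. Bop1 rose by 0.92 ± 0.13 in KO and 0.76 ± 0.13 in WT. Pes1 stood at 1.37 and 1.77 on the stimulated KO arrays and 1.64 and 1.57 on the stimulated WT arrays, against 1.14 and 1.15 on the KO medium arrays and 1.36 and 1.07 on the WT medium arrays. Its stimulated arrays were higher than the medium arrays of the same genotype by small margins, and the fold changes of 0.42 ± 0.17 in KO and 0.39 ± 0.17 in WT were not called, nor were those of its dimmer 2nd probe at 0.56 in KO and 0.50 in WT. Wdr12 stood at 0.70 and 0.79 on the stimulated KO arrays and 0.56 and 0.73 on the stimulated WT arrays, against 0.88 and 0.68 on the KO medium arrays and 0.71 and 0.89 on the WT medium arrays. All 8 values fell in a narrow band in which stimulated and medium arrays overlapped, with fold changes of -0.03 ± 0.14 in KO and -0.16 ± 0.14 in WT, and the sign in KO turned to 0.0033 when arrays were centred on the median. Differences in response between the 3 genes were not tested. Noc3l, whose yeast relative pairs with that of Noc2l, stood at 1.44 and 1.29 on the stimulated KO arrays and 1.28 and 1.37 on the stimulated WT arrays, against 1.18 and 1.01 on the KO medium arrays and 1.12 and 1.25 on the WT medium arrays. The groups were close without overlapping, and the fold changes of 0.27 ± 0.12 in KO and 0.14 ± 0.12 in WT were not called.

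Of the 4 abundant nucleolar proteins with several functions, 3 rose in both genotypes. Mybbp1a, a nucleolar partner of Myb, stood at 5.45 and 5.65 on the stimulated KO arrays and 5.63 and 5.58 on the stimulated WT arrays, against 4.37 and 4.13 on the KO medium arrays and 4.51 and 4.39 on the WT medium arrays. Ddx21, an RNA helicase that acts in ribosomal RNA transcription and processing, stood at 3.96 and 4.36 on the stimulated KO arrays and 4.09 and 4.18 on the stimulated WT arrays, against 3.18 and 3.04 on the KO medium arrays and 3.28 and 3.28 on the WT medium arrays. Neither gene had a stimulated array near a medium array. Mybbp1a rose by 1.30 ± 0.13 in KO and 1.15 ± 0.13 in WT, and Ddx21 by 1.05 ± 0.16 in KO and 0.85 ± 0.16 in WT. Ncl, or nucleolin, rose by 0.68 ± 0.12 in KO and 0.63 ± 0.12 in WT, and its dimmer 2nd probe gave 1.14 in KO, which was called, and 0.86 in WT, which was not (limma adjusted p = 0.051 in a fit of all 37259 probes past the filter).

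Npm1, or nucleophosmin, a histone and ribosome chaperone, stood at 7.29 and 7.51 on the stimulated KO arrays and 7.41 and 7.54 on the stimulated WT arrays, against 7.31 and 7.14 on the KO medium arrays and 7.55 and 7.26 on the WT medium arrays. The stimulated and medium arrays overlapped in both genotypes. Its fold changes of 0.17 ± 0.15 in KO and 0.07 ± 0.15 in WT were not called, and that in KO was -0.03 without both KO replicate 2 arrays. The other 3 probes of Npm1 gave 0.23 to 0.30 in KO and 0.25 to 0.30 in WT, and none was called.

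Beyond the 39, the rest of the pathway was measured with a list of 138 other ribosome biogenesis genes, of which 137 were tested (Ttf1, a terminator of ribosomal RNA transcription, did not pass the filter). In KO 53 rose and 0 fell, where 5.85% of all genes were called higher and 2.28% lower. In WT 44 rose and 0 fell, where 6.42% of all genes were called higher and 3.84% lower. The median log2 fold changes were 0.48 in KO and 0.40 in WT. The KO count was lower without both KO replicate 2 arrays. It was 0 when only the KO arrays were fitted, where 0.251% of all genes were called. The KO count was also lower in every fit with 1 array left out, and the WT count fell most when a WT array was left out. Without WT stimulated replicate 1, WT stimulated replicate 2 or WT medium replicate 1, the share of this list called in WT was no larger than that of all genes. The 6 with the largest rise in WT among those called in both genotypes were Rrp1b, Mrto4, Rrp15, Ppan, Nifk and Rpf2, all of them large subunit assembly factors. Rrp1b stood at 0.65 and 1.16 on the stimulated KO arrays and 0.85 and 0.72 on the stimulated WT arrays, against -0.83 and -1.03 on the KO medium arrays and -1.02 and -0.91 on the WT medium arrays, and it rose by 1.83 ± 0.19 in KO and 1.75 ± 0.19 in WT. The other 5 rose by 1.28 to 1.81 in KO and by 1.17 to 1.58 in WT. By role, the other RNA polymerase I genes had the lowest median, 0.05 in KO and 0.12 in WT over 9 genes, of which 2 were called higher in each genotype.

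Structural proteins of the ribosome were measured with 2 further lists. Of 81 cytosolic ribosomal protein genes, 1 was called higher in each genotype, and the median log2 fold change was -0.10 in KO and 0.04 in WT. The called gene was Rpl7l1, a relative of the ribosomal protein gene Rpl7, at 0.98 in KO and 0.88 in WT. The list was made from gene symbols, so it also holds such relatives, which need not be structural proteins of the ribosome. Of 77 mitochondrial ribosomal protein genes, 7 were called higher in KO and 8 in WT, with medians of 0.15 in KO and 0.16 in WT, where 5.85% of all genes were called higher in KO and 6.42% in WT. Differences between these lists and the 39 members were not tested.

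**Figure D3:**
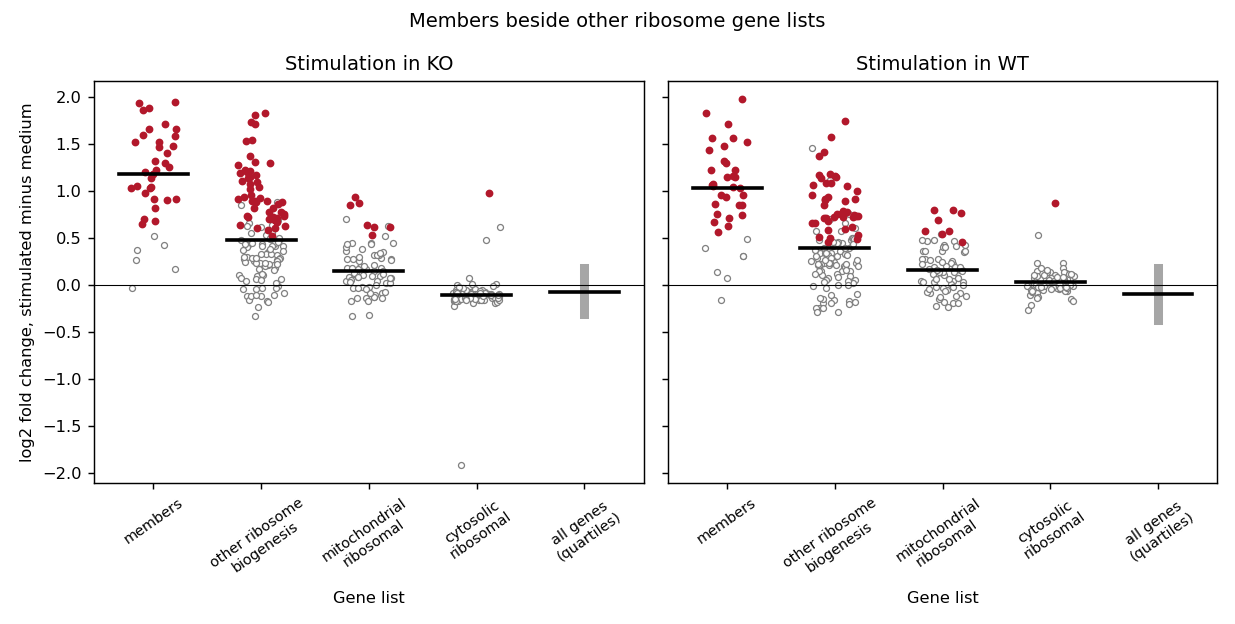
Log2 fold changes on stimulation in KO (left panel) and WT (right panel) for the 39 members and 3 other gene lists, 1 point per gene, red where called higher and open where not called. Black bars mark the medians, and the grey bar at the right of each panel spans the quartiles of all 15140 genes. The medians are 1.18 in KO and 1.03 in WT for the members, and -0.10 in KO and 0.04 in WT for the cytosolic ribosomal proteins.

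Myc, which activates many ribosome biogenesis genes, rose in both genotypes. It stood at 3.93 and 4.62 on the stimulated KO arrays and 4.18 and 4.19 on the stimulated WT arrays, against 0.35 and 0.71 on the KO medium arrays and 0.25 and 0.54 on the WT medium arrays. The groups were far apart, with the KO replicate 2 array the highest of its group in each condition. Its log2 fold changes were 3.74 ± 0.26 in KO (limma adjusted p = 0.00145) and 3.79 ± 0.26 in WT (limma adjusted p = 0.00137), and 3.58 in KO without both KO replicate 2 arrays. Max, its dimer partner, gave 0.20 ± 0.14 in KO and 0.14 ± 0.14 in WT, and Mycn, its relative, -0.25 ± 0.65 in KO and -0.51 ± 0.65 in WT, and neither was called.

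No member was called between genotypes. After stimulation 0 of 39 members were called in KO against WT by limma, and 0 had an unadjusted p below 0.05, where 0.0198% of all genes were called. In medium 0 of 39 were called and 0 had an unadjusted p below 0.05, where 0.00661% of all genes were called. The median difference, KO minus WT, was 0.06 on the log2 scale after stimulation, with 34 of 39 above 0, and -0.09 in medium, with 31 of 39 below 0. Over all genes the median was -0.04 after stimulation, with 40.9% above 0, and -0.06 in medium, with 60.3% below 0. Without both KO replicate 2 arrays the member median after stimulation turned to -0.08, with 33 of 39 below 0, and that in medium was -0.05, with 27 of 39 below 0. In that fit the median over all genes was -0.03 after stimulation and -0.01 in medium. Both KO arrays lay above both WT arrays for 4 members after stimulation, a pattern shown by 13.2% of all genes, and below both WT arrays in medium for 15 members, a pattern shown by 21.3% of all genes.

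The 2 members with the smallest unadjusted p after stimulation were Utp20 and Polr1a, whose values on each array are given above. Utp20 differed by 0.22 ± 0.13 and Polr1a by 0.23 ± 0.18 (KO minus WT, limma adjusted p = 0.932 for both). In medium they were Nop56 and Utp20. Nop56 stood at 5.001 and 4.69 on the KO medium arrays against 5.24 and 4.99 on the WT medium arrays, and at 5.93 and 6.12 on the stimulated KO arrays against 6.09 and 6.06 on the stimulated WT arrays. The genotypes overlapped in both conditions, the KO medium replicate 2 array being the lowest. The difference in medium was -0.27 ± 0.16 for Nop56 and -0.21 ± 0.13 for Utp20 (KO minus WT, limma adjusted p = 0.736 for both).

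**Figure D4:**
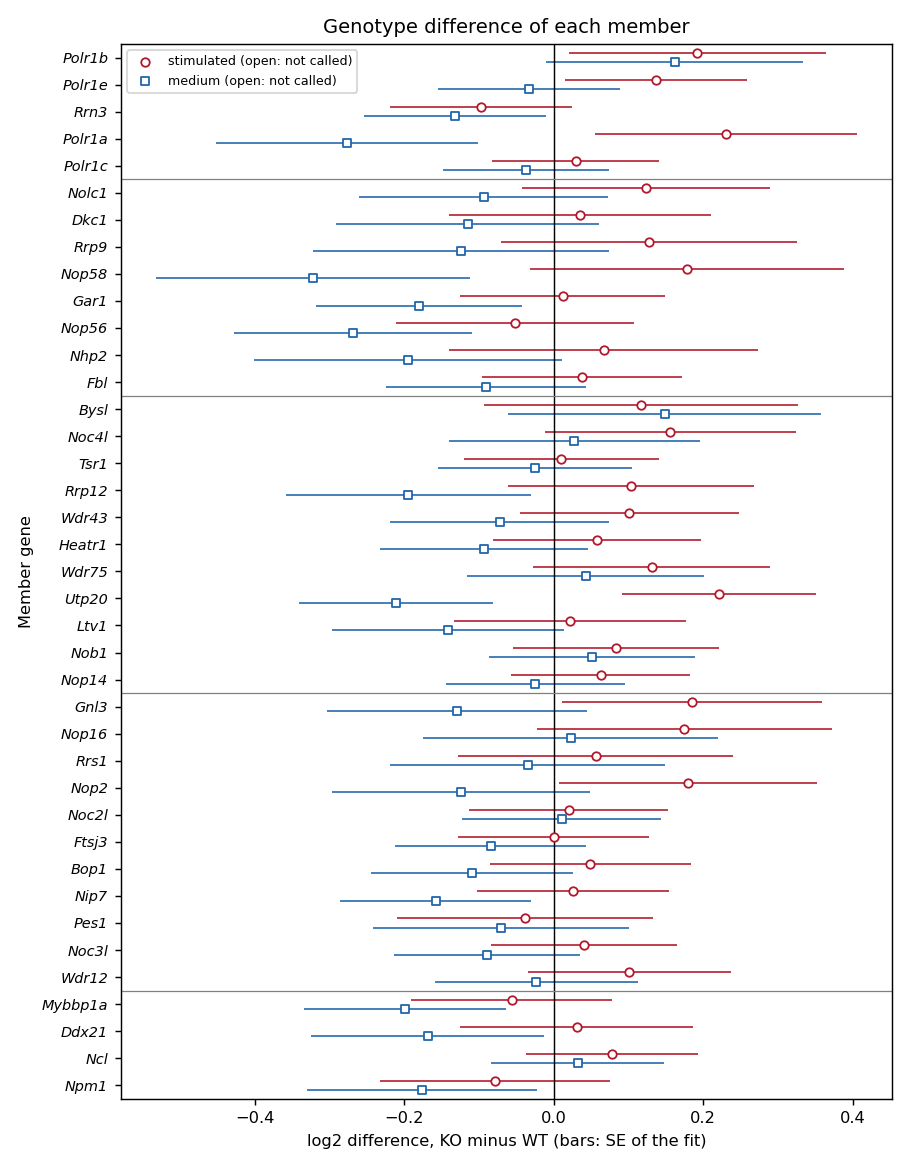
Genotype difference of each of the 39 genes, KO minus WT on the log2 scale, with bars for the standard error of the fit, in the same row order as the plot of responses. Red circles are stimulated cells and blue squares cells in medium, all open because none was called. The circles run from -0.10 for Rrn3 to 0.23 for Polr1a and the squares from -0.32 for Nop58 to 0.16 for Polr1b.

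The response to stimulation, KO minus WT, was positive for 38 of 39 members with a median of 0.15 on the log2 scale, Bysl being the exception at -0.03, while 54.7% of all genes were positive with a median of 0.02. None was called by limma, 0 had an unadjusted p below 0.05, and 0.00661% of all genes were called. The smallest unadjusted p belonged to Utp20, with a difference in response of 0.43 ± 0.18 (limma adjusted p = 0.9999). The comparisons of genotypes use the same 8 arrays as the responses and are not independent of them. The positive median moved with the KO replicate 2 arrays. Set against the medium mean of their genotype, the members had a median of 0.92 on the stimulated KO replicate 1 array and 1.35 on the stimulated KO replicate 2 array, against 1.03 and 1.01 on the stimulated WT arrays. KO replicate 2 exceeded KO replicate 1 for 38 of 39 members among the stimulated arrays, by a median of 0.29, while the median over all genes was -0.03. Among the KO medium arrays, replicate 2 exceeded replicate 1 for only 10 of 39 members. There replicate 2 minus replicate 1 had a median of -0.10 over the members and -0.13 over all genes. Without both KO replicate 2 arrays the median difference in response turned to -0.06 (-0.01 over all genes), and 29 of 39 members were below 0. With only 1 stimulated KO array left out it was 0.01 without replicate 2 and 0.30 without replicate 1. The neutrophil, monocyte and macrophage, erythroid and cell cycle markers were high on both KO replicate 2 arrays, unlike the members, which were high on the stimulated one only. The part of these markers in the result was not tested.

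**Figure D5:**
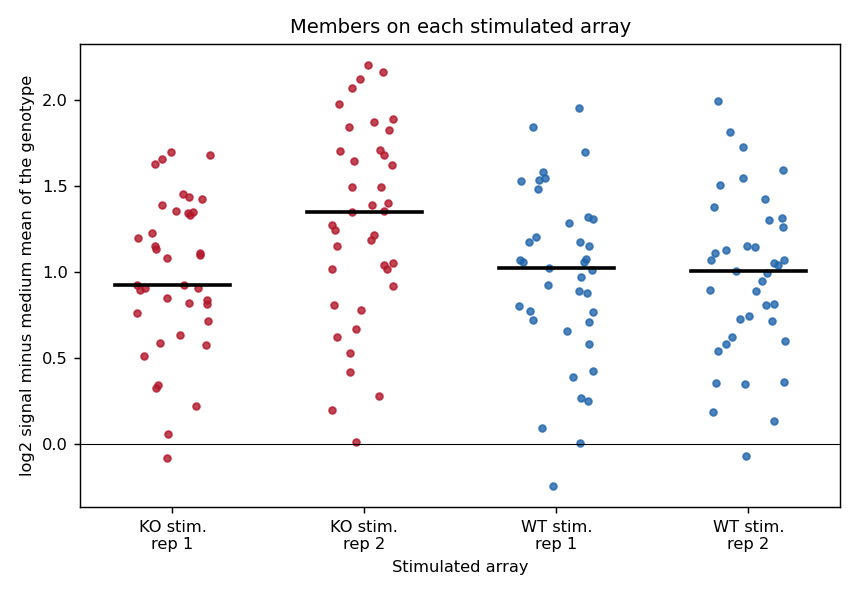
The 39 genes on each of the 4 stimulated arrays, 1 point per gene, as the log2 normalized signal minus the mean of the 2 medium arrays of the same genotype. Black bars mark the medians, 0.92 and 1.35 on the KO arrays and 1.03 and 1.01 on the WT arrays. The stimulated KO replicate 2 array is the highest and the other 3 are close to each other.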

How the data were processed

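The samples were total RNA of splenic T cells, turned into Cy3-labelled cRNA for one-colour arrays, with an RNA integrity number larger than 9.5 in each per the labels' protocols. Agilent Feature Extraction 10.7.1.1 made the deposited files, per the file headers, and the column analysed is that software's background-subtracted spot intensity, which is linear. The series' own deposited table repeats the median spot intensity (0 values differ). Groups were read from the sample titles.

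An array has 62976 spots, 3671 of them controls, for 55681 non-control probes. Log2 of the intensity was scaled by subtracting the 75th percentile of its array (1200 to 1469 before the log), leaving out control spots and the 120 to 195 spots an array marked as outliers. Spots of a probe were averaged. The filter asked that a probe be well above background on 2 arrays of some group. The share of probes well above background ran from 58.4% to 69.3% of an array, 1 spot was saturated, and the number of arrays limits the precision. Accessions matched without versions to RefSeq's table of GRCm38.p6 named 26056 probes and left 29625 unnamed here. The headers give mm9 as the build of the design, so the coordinates and sequences of promoter windows are RefSeq's own. A mean per group was fitted to all 8 arrays with limma 3.58.1 in R 4.3.3, with 4 residual degrees of freedom and 2.11 added by moderation. P-values are two-sided.

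The members, gene lists and tests were chosen with earlier results of these data known. Values on each array are given for the 2 members of each role with the largest rise in WT, for those not called in both genotypes, and for the 2 with the smallest p between genotypes, together with Rrp1b of the 6 other ribosome biogenesis genes that rose most, Lsp1 and Myc. Windows were printed for members with CACGTG and for the member without it that rose most in WT, and the ETS and TATA letters were searched beside it. Alternatives changed the background correction, scaling, filter, probe choice, arrays and blocks. The planned normexp correction used the median signal because the files hold no mean signal.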

Additional observations from a re-analysis of the deposited data

Results flagged for a closer look

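Utp20, a scaffold protein of the early small subunit particle, was noted because the genotypes differed in opposite directions in the 2 conditions. KO minus WT was 0.22 on the log2 scale after stimulation, with both KO arrays above both WT arrays, and -0.21 in medium, with both KO arrays below both WT arrays. Neither difference was called, and the opposite direction itself was tested only as the difference in response, 0.43 ± 0.18 (limma adjusted p = 0.9999 over all genes). The differences were 0.08 after stimulation and -0.18 in medium when both KO replicate 2 arrays were left out. Utp20 was picked from 39 members for this pattern, and the groups of 2 arrays were too small for a test of outlying arrays.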

How the results depend on the processing

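Members called higher on stimulation numbered 30 to 34 in KO and 30 to 33 in WT over 10 alternatives, and 0 were called lower. The alternatives changed the background correction, scaling, filter, probe choice, blocks or source of values. They called 4.22% to 18.3% of all genes in KO and 10.2% to 23.3% in WT, in either direction. With the replicate number as a block the counts were 32 in KO and 30 in WT, where 7.58% and 10.3% of all genes were called. With the block within genotype they were 34 and 33, where 18.3% and 23.3% of all genes were called. With crossed numbers, added after seeing the data, they were 32 in each, where 9.21% and 11.2% of all genes were called. The blocks called 0 members between genotypes. The deviations of same-numbered arrays from their group means correlated at 0.74 between the KO groups, 0.16 between the WT groups and -0.24 to -0.06 between genotypes. The labels do not say what a number marks, so the numbers were not taken as pairs in the main fit. Leaving out 1 array at a time gave 15 to 31 members in KO, lowest without KO medium replicate 2, and 3 to 31 in WT. The WT count was 3 without either stimulated WT array or WT medium replicate 1, and 11 without WT medium replicate 2. For the other ribosome biogenesis genes the counts were 6 to 50 in KO and 0 to 46 in WT. With only the groups compared in the fit, 0 members and 0 other ribosome biogenesis genes were called in KO, where 0.251% of all genes were called. In WT that fit called 32 members, where 17.9% of all genes were called. With both KO replicate 2 arrays left out, 16 members and 7 other genes were called in KO. The share of all genes called also moved in these fits. With 1 array left out it ran from 2.42% to 9.78% in KO and from 1.31% to 11.6% in WT, in either direction. It was 2.88% in KO with both KO replicate 2 arrays left out. Fits with arrays left out or with only the groups compared also have fewer residual degrees of freedom, and what lowered the counts was not tested. The median member fold change stayed between 0.92 and 1.35 in KO and between 0.99 and 1.1 in WT.

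Directions on stimulation turned for 2 members, neither of them called. Npm1 was -0.026 in KO without both KO replicate 2 arrays, and in WT between -0.075 (without WT medium replicate 2) and 0.22 with 1 array left out. Wdr12 in KO was 0.0033 with arrays centred on the median, and between -0.13 and 0.068 with 1 array left out, above 0 without replicate 1 of either KO group. Between genotypes, where no member was called, 28 of 39 members changed direction after stimulation and 6 in medium without both KO replicate 2 arrays, and 28 in the difference in response. In none of these alternatives was a member called between genotypes or in the difference in response. The fit of only the groups compared cannot give the difference in response.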
